A study of Mus musculus with 10 samples.

Results

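The genes described here encode the ion channels, ion pumps and acetylcholine receptor subunits on an array of mouse oligonucleotides. They were taken as every feature with a single gene symbol that begins with Kcn (potassium channels), Scn and a digit (sodium channels), Clcn (chloride channels), Cacn (calcium channels), Chrn (nicotinic acetylcholine receptors), Itpr (inositol trisphosphate receptors) or Atp1 or Atp2 (sodium and calcium pumps). This gave 112 features of 103 genes, out of 7697 features and 6540 named genes. Of these, 18 features of 17 genes were placed among the forms used by skeletal muscle, 37 features of 33 genes among the forms best known from neurons, and 57 features of 53 genes in neither group. The symbol rule also takes in Atp10a and Atp11a, which encode lipid flippases, and Atp12a, a proton and potassium pump.

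RNA came from the quadriceps of 10 untreated male mice, 8 weeks old, 2 of each of 5 inbred strains: CBA/CaOlaHsd (CBA), C57Bl/10ScSnOlaHsd (BL10), C57Bl/6JOlaHsd (BL6), DBA/2OlaHsd (DBA) and BALB/cOlaHsd (BALB). Each array compared 2 animals of different strains, 1 labelled with Cy5 and 1 with Cy3, and the deposited value is the log ratio of the pair. Of the 10 arrays, 2 held the same value at every spot although their labels differ (BL6 2 over CBA 1, and BALB 1 over CBA 2, where the number is that of the animal) and both were left out. The 8 arrays that remained hold CBA only on 2, both with CBA in Cy5 over BL10, so that the CBA level depends more than any other on the estimate of the dye effect. Its median standard error against the other strains was 0.234 on the log2 scale, compared with 0.131 to 0.164 for the other 4 strains. The ratios carry no brightness, so it could not be checked whether a transcript, or a marker of muscle, was above background, and levels could be compared between strains but not between genes. Whole muscle holds fibres, nerve, vessels and other cells, and fewer cells of a type cannot be told apart from less RNA in each cell.

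A muscle fibre contracts when acetylcholine from the motor nerve opens the nicotinic receptor at the endplate, a channel built of the subunits encoded by Chrna1, Chrnb1, Chrnd and Chrne, with Chrng in place of Chrne before birth. Voltage-gated sodium channels then carry the action potential along the fibre, the chloride channel Clcn1 and potassium channels restore the resting potential, and the voltage sensor of the T-tubule, a calcium channel with the accessory subunits Cacna2d1, Cacnb1 and Cacng1, opens the ryanodine receptor. Calcium is pumped back into the sarcoplasmic reticulum by SERCA1 (Atp2a1) in fast fibres and SERCA2 (Atp2a2) in slow fibres and heart. The neuronal forms are best known from nerve cells and their terminals.

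The sequences upstream of 4 endplate receptor genes are shown because these subunits are the best known targets of motifs that couple transcription to muscle identity and to innervation. Each is the 250 bases before the transcription start in the RefSeq annotation of GRCm38.p6, 5′ to 3′ on the strand of the gene, with E-boxes (CANNTG) and N-boxes (CCGGAA, searched on both strands) in capitals. Of the 103 genes, 83 were found in the promoter table, and Chrnd was not among them. The windows lie at chr2:73580339-73580588 for Chrna1, chr11:69795938-69796187 for Chrnb1 and chr11:70619195-70619444 for Chrne, all on the minus strand, and at chr1:87205561-87205810 for Chrng on the plus strand.
Chrna1: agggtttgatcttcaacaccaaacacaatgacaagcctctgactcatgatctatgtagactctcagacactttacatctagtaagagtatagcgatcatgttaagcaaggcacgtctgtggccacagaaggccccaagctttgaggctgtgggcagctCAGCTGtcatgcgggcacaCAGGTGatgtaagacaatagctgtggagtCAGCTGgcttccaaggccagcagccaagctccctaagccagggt
Chrnb1: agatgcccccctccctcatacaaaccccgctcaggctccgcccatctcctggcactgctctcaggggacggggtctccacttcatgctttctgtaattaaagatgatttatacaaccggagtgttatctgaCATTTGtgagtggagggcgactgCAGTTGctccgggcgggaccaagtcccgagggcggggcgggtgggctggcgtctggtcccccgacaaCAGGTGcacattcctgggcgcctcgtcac
Chrng: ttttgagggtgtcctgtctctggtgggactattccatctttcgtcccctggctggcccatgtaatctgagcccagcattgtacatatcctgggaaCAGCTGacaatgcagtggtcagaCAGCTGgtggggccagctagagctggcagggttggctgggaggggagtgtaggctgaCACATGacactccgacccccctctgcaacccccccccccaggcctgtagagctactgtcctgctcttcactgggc
Chrne: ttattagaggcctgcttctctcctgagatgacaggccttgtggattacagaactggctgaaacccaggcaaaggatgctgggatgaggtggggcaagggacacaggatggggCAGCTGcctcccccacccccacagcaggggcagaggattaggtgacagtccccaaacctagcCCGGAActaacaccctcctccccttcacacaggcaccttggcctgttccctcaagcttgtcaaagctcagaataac
Chrna1, Chrnb1 and Chrng each held 3 E-boxes, whereas Chrne held 1 E-box and was the only one of these 4 with an N-box. No motif overlapped another. An E-box is short and common: 66.2% of 32851 promoters held at least 1 in a window of this length and 31.8% held 2 or more, compared with 12.0% for the N-box.

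Between the strains, none of the 112 features passed an FDR of 10% in limma's moderated F test, against a background of 0.130% (10 of 7697 features). The smallest adjusted p was 0.154, for Kcna1. At an unadjusted p below 0.05 there were 16 features (14.3%), close to the 14.0% of all features. These were 3 of 18 muscle forms (Cacna2d1, Cacng1 and Chrne), 6 of 37 neuronal forms (Kcna1, Kcnj9, Cacnb4, Chrnb2, Cacng4 and Cacng3) and 7 of 57 others (Kcna3, Cacna1h, Kcnab1, Itpr2, Kcnma1, Kcnab3 and Kcnd1). The strain levels given next are therefore measurements whose differences did not pass the correction for all features. A level is the log2 difference of a strain from the mean of the 5 strains, with its SE from the fit to 8 arrays and 2 animals a strain.

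The size of the differences was also that of the array at large. The range from the highest to the lowest strain had a median of 0.46 on the log2 scale over the 112 features, compared with 0.45 over all 7697. The median was 0.46 for muscle forms, 0.37 for neuronal forms and 0.48 for the others. A range above 1 was found in 9 features (8.04%, against 5.70% of all features), namely Kcnab1 (1.41), Cacnb4 (1.34), Kcnj9 (1.21), Kcna3 (1.19), Kcnma1 (1.18), Chrne (1.13), Kcnab3 (1.02), Kcnd1 (1.02) and Chrna4 (1.01). Sodium channels (0.22 to 0.48 over 6 features) had no range of this size, and nor did chloride channels (0.16 to 0.66 over 8 features).

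**Figure D1:**
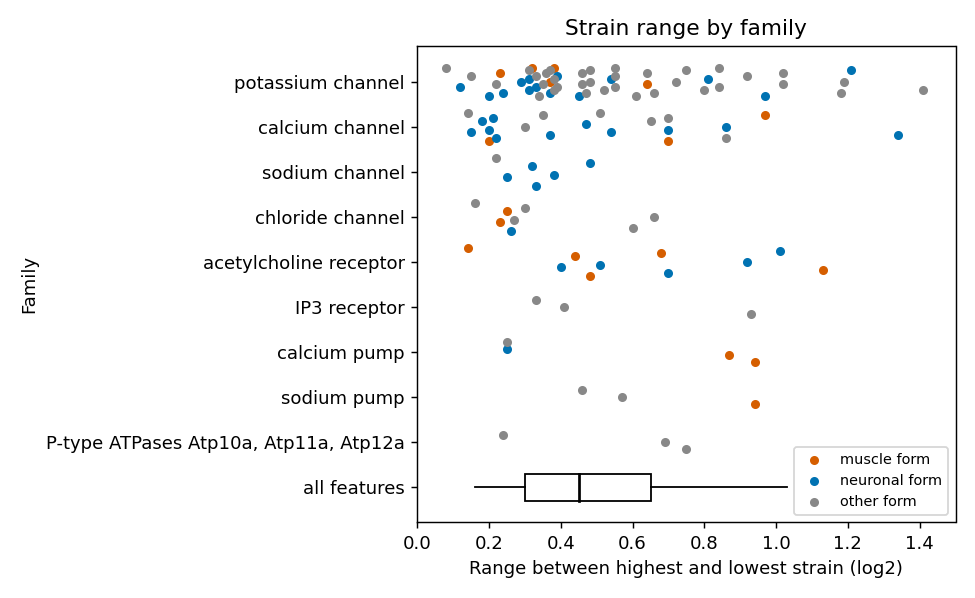
Range from the highest to the lowest strain on the log2 scale (x axis) for each of the 112 features by family (y axis, points coloured by form and shifted vertically for legibility). The box at the bottom gives the quartiles and median (0.45) of all 7697 features, with lines to the 5th and 95th percentiles, and the largest ranges, up to 1.41, are those of potassium and calcium channels.

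Among the subunits of the endplate receptor, Chrne, the adult epsilon subunit, had the widest range. Its centred log2 ratios were 0.29 for CBA 1 over BL10 1, 0.10 for CBA 2 over BL10 2, 0.09 for BL10 1 over BALB 2, -0.24 for BL10 2 over DBA 1, -0.22 for DBA 1 over BL6 1, -0.73 for BL6 1 over DBA 2, 0.11 for DBA 2 over BALB 1 and -0.43 for BALB 2 over BL6 2. Both CBA arrays thus gave ratios slightly above 0, and the larger deviations of the ratios were on arrays without CBA. With the dye term taken off, CBA over BL10 was 0.70 for CBA 1 and 0.50 for CBA 2. The fitted levels were 0.69 ± 0.17 in CBA, 0.09 ± 0.10 in BL10, -0.02 ± 0.10 in DBA, -0.32 ± 0.12 in BL6 and -0.44 ± 0.11 in BALB (SE, n = 2 animals), with adjusted p = 0.25 in the F test. The dye term of Chrne was -0.40, and without a dye term the CBA value against the other 4 strains went from 0.86 to 0.13. Taken alone, 1 of its 2 spots had p below 0.05. With all 10 arrays under their labels the range of Chrne fell from 1.13 to 0.31, with p above 0.05.

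The other 4 subunits had smaller ranges and no p below 0.05. Chrna1, the ligand-binding alpha subunit, ran from -0.39 in CBA to 0.29 in BL6, a range of 0.68 (adjusted p = 0.51). Chrnb1 ran from -0.23 in BALB to 0.26 in CBA, the same extremes as Chrne (range 0.48, adjusted p = 0.568). Chrng, the fetal gamma subunit, lay at -0.22 in CBA and at 0.22 in BL6 and DBA (adjusted p = 0.571). Chrnd, which neighbours Chrng in the gene table, had the smallest range of any muscle form, 0.14 (adjusted p = 0.99), from -0.08 in CBA to 0.05 in BL6 and DBA.

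Both muscle calcium channel subunits with p below 0.05 were high in BALB and low in CBA and BL6. Cacna2d1 encodes the extracellular alpha-2-delta-1 subunit, which accompanies the voltage sensor. Its ratios were 1.0 for BALB 2 over BL6 2, 0.96 for DBA 1 over BL6 1, -0.05 for BL6 1 over DBA 2, -0.45 for DBA 2 over BALB 1, -0.03 for BL10 1 over BALB 2, -0.09 for BL10 2 over DBA 1, -0.14 for CBA 1 over BL10 1 and -0.30 for CBA 2 over BL10 2. Each array that set a BALB or DBA animal in Cy5 against BL6 thus gave a ratio close to a doubling, before the dye term of 0.26 was taken off. These 2 arrays also had wide spreads over all features, with an SD of 0.545 for BALB 2 over BL6 2 and 0.559 for DBA 1 over BL6 1. The levels were 0.54 ± 0.15 in BALB, 0.15 ± 0.13 in DBA, 0.05 ± 0.13 in BL10, -0.32 ± 0.16 in BL6 and -0.43 ± 0.23 in CBA (adjusted p = 0.197).

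Cacng1 encodes the gamma-1 subunit of the same complex and is specific to skeletal muscle. Its ratios were 0.75 for BALB 2 over BL6 2, 0.81 for DBA 1 over BL6 1, 0.04 for BL6 1 over DBA 2, -0.26 for DBA 2 over BALB 1, 0.17 for BL10 1 over BALB 2, 0.22 for BL10 2 over DBA 1, -0.25 for CBA 1 over BL10 1 and -0.20 for CBA 2 over BL10 2. The strain order was that of Cacna2d1 except that BL10 lay above DBA: 0.37 ± 0.13 in BALB, 0.16 ± 0.11 in BL10, 0.07 ± 0.11 in DBA, -0.25 ± 0.14 in BL6 and -0.34 ± 0.20 in CBA (adjusted p = 0.223). Each spot of Cacna2d1 and of Cacng1 had p below 0.05 on its own. The BALB value against the other 4 strains moved with the animals entered. Without BL6 1 it went from 0.68 to 0.05 for Cacna2d1 and from 0.46 to 0.06 for Cacng1, and without BALB 2 to 1.49 and 1.04. Leaving out BL6 1 also removes both arrays that set it against DBA, and the part of the animal itself was not tested. Cacnb1, the beta-1 subunit, had levels from -0.09 to 0.12 (adjusted p = 0.803).

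**Figure D2:**
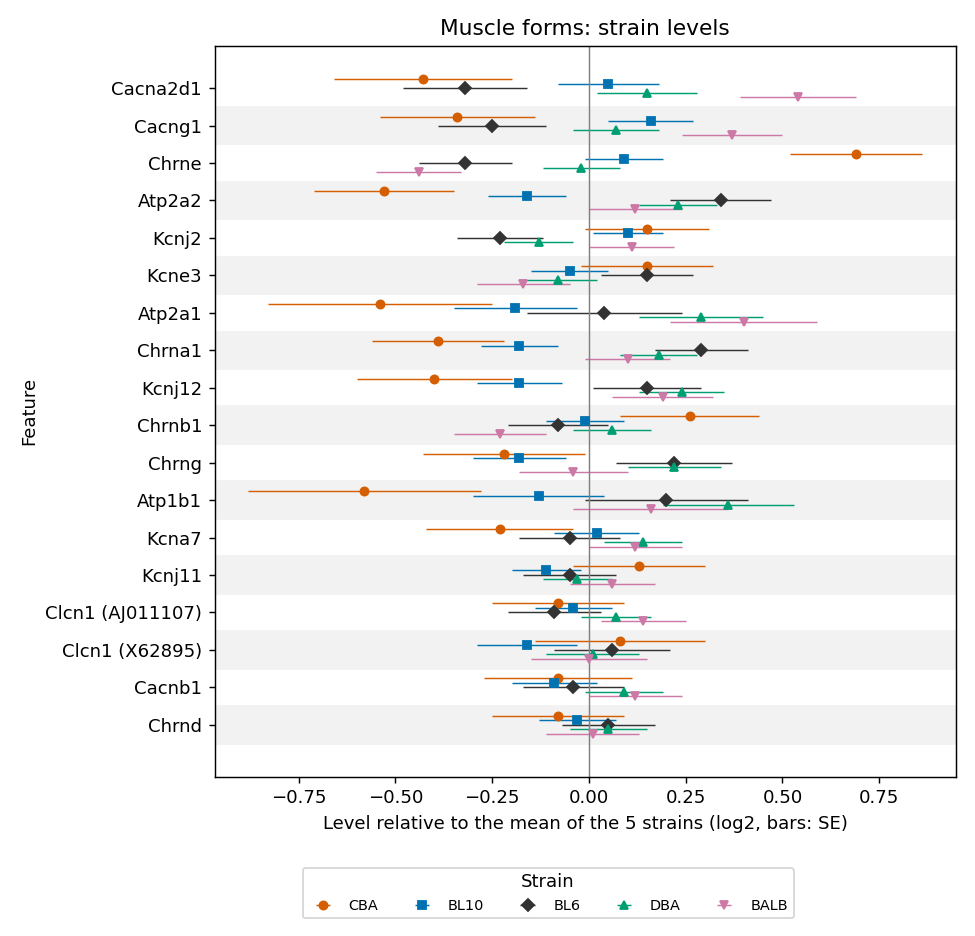
Level of each strain relative to the mean of the 5 strains (x axis, log2, bars are SE from the fit) for the 18 features of muscle forms (y axis, ordered by p). CBA is the outermost strain in most rows and has the longest bars, and the 3 uppermost features, Cacna2d1, Cacng1 and Chrne, are those with an unadjusted p below 0.05.

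Of the calcium pumps of the sarcoplasmic reticulum, Atp2a1 and Atp2a2 had ranges above the median of the array, without a p below 0.05. Atp2a2 ratios were 0.76 for DBA 2 over BALB 1, 0.56 for BL6 1 over DBA 2, 0.37 for BALB 2 over BL6 2, 0.28 for DBA 1 over BL6 1, 0.28 for CBA 1 over BL10 1, 0.24 for BL10 2 over DBA 1, 0.12 for BL10 1 over BALB 2 and 0.00 for CBA 2 over BL10 2. None of the 8 ratios was below 0, whichever strain was in Cy5, and the dye term was 0.51. The levels were 0.34 ± 0.13 in BL6, 0.23 ± 0.10 in DBA, 0.12 ± 0.12 in BALB, -0.16 ± 0.10 in BL10 and -0.53 ± 0.18 in CBA (adjusted p = 0.424). Atp2a1 ran from -0.54 in CBA to 0.40 in BALB, a range of 0.94 (adjusted p = 0.503), and Atp1b1, a beta subunit of the sodium pump, from -0.58 in CBA to 0.36 in DBA, also 0.94 (adjusted p = 0.581).

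None of the channels that set the resting potential of the fibre had p below 0.05. Kcnj2, the inward rectifier Kir2.1, had ratios of -0.57 for DBA 2 over BALB 1, -0.45 for BL6 1 over DBA 2, -0.39 for CBA 1 over BL10 1, -0.36 for BL10 1 over BALB 2, -0.23 for DBA 1 over BL6 1, -0.19 for CBA 2 over BL10 2, -0.10 for BL10 2 over DBA 1 and -0.02 for BALB 2 over BL6 2. All 8 were below 0, with a dye term of -0.34. Its levels lay between -0.23 ± 0.11 in BL6 and 0.15 ± 0.16 in CBA (adjusted p = 0.48). The 2 features of Clcn1, the main chloride channel of muscle, had ranges of 0.23 and 0.25. Kcnj12 (Kir2.2) ran from -0.40 in CBA to 0.24 in DBA (range 0.64, adjusted p = 0.553). Kcna7, Kcne3 and Kcnj11, the pore of the ATP-sensitive channel, had ranges of 0.37, 0.32 and 0.23.

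Of the neuronal forms, Kcna1, the Kv1.1 channel of myelinated axons, had the smallest p of all 112 features (adjusted p = 0.154). Its ratios were 1.05 for BALB 2 over BL6 2, 1.01 for DBA 1 over BL6 1, -0.02 for BL6 1 over DBA 2, -0.19 for DBA 2 over BALB 1, 0.44 for BL10 1 over BALB 2, 0.36 for BL10 2 over DBA 1, -0.40 for CBA 1 over BL10 1 and -0.36 for CBA 2 over BL10 2. BALB (0.40 ± 0.13) and BL10 (0.31 ± 0.11) lay above DBA (0.10 ± 0.11), and BL6 (-0.39 ± 0.14) and CBA (-0.42 ± 0.20) below it. The dye term was 0.35, and without it CBA against the other 4 strains went from -0.52 to 0.10. The neighbours Kcna5 and Kcna6 had ranges of 0.33 and 0.37 (adjusted p = 0.919 and 0.846).

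Kcnj9 encodes GIRK3, a potassium channel subunit gated by G proteins. Its ratios were 1.30 for BALB 2 over BL6 2, 0.92 for DBA 1 over BL6 1, 0.28 for BL6 1 over DBA 2, 0.17 for DBA 2 over BALB 1, -0.09 for BL10 1 over BALB 2, 0.09 for BL10 2 over DBA 1, 0.08 for CBA 1 over BL10 1 and 0.17 for CBA 2 over BL10 2. The levels ran from 0.60 ± 0.11 in BALB through 0.25 ± 0.09 in DBA, -0.09 ± 0.11 in BL6 and -0.15 ± 0.09 in BL10 to -0.61 ± 0.16 in CBA (adjusted p = 0.154). Both CBA animals gave ratios above 0 against BL10, and CBA became the lowest strain after the dye term of 0.58 was taken off. The other GIRK subunits on the array, Kcnj3 (range 0.33), Kcnj5 (0.38) and the 3 features of Kcnj6 (0.20 to 0.39), had no p below 0.05.

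The neuronal receptor subunit with p below 0.05 was Chrnb2, the beta-2 subunit that pairs with alpha-4 in brain. Its ratios were 0.84 for BALB 2 over BL6 2, 0.60 for DBA 1 over BL6 1, -0.03 for BL6 1 over DBA 2, -0.41 for DBA 2 over BALB 1, 0.42 for BL10 1 over BALB 2, 0.27 for BL10 2 over DBA 1, -0.27 for CBA 1 over BL10 1 and -0.19 for CBA 2 over BL10 2. BL10 (0.30 ± 0.12) and BALB (0.28 ± 0.14) were highest and BL6 (-0.41 ± 0.15) lowest (adjusted p = 0.223). Its partner Chrna4 had another order, with DBA (0.49) and BL6 (0.38) highest and BL10 (-0.52) lowest (adjusted p = 0.367). The lowest ratio of any feature described here, -1.67, was that of Chrna4 on the array of BL10 2 over DBA 1. In contrast, BL10 1 over BALB 2 stood at 0.29. With the dye term taken off, BL10 over BALB was 0.30 on that array but -1.03 along the chain of arrays from BL10 2 to BALB 1. The low BL10 level of Chrna4 thus differed between the 2 routes. Chrna7 ran between 0.49 in CBA and -0.43 in BALB (adjusted p = 0.382), and Chrna5 and Chrna6 had ranges of 0.40 and 0.51.

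Cacnb4, a beta subunit of neuronal calcium channels, had the smallest adjusted p of the 112 features in BL6 against the other strains. The feature of accession AF068899 gave ratios of 0.65 for BL6 1 over DBA 2, -0.52 for DBA 1 over BL6 1, -0.30 for BALB 2 over BL6 2, 0.36 for DBA 2 over BALB 1, -0.33 for BL10 1 over BALB 2, -0.28 for BL10 2 over DBA 1, -0.25 for CBA 1 over BL10 1 and -0.01 for CBA 2 over BL10 2. BL6 was the higher animal on all 3 arrays that held it, in either dye. Its level was 0.70 ± 0.13, compared with 0.16 ± 0.10 in DBA, 0.13 ± 0.12 in BALB, -0.34 ± 0.11 in BL10 and -0.65 ± 0.18 in CBA (adjusted p = 0.197). BL6 against the mean of the other 4 strains was 0.87 ± 0.16, with an adjusted p of 0.15 in limma. With all 10 arrays under their labels this value was 0.29 and the range fell from 1.34 to 0.37, with p above 0.05, and of the spots 1 had p below 0.05 on its own.

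Cacng3 and Cacng4 encode relatives of Cacng1 that act in neurons as auxiliary subunits of glutamate receptors. The ratios of Cacng3 were 0.88 for DBA 1 over BL6 1, -0.21 for BL6 1 over DBA 2, 0.35 for BALB 2 over BL6 2, -0.48 for DBA 2 over BALB 1, 0.35 for BL10 1 over BALB 2, 0.14 for BL10 2 over DBA 1, -0.63 for CBA 1 over BL10 1 and -0.53 for CBA 2 over BL10 2. BL10 (0.35 ± 0.15) and BALB (0.22 ± 0.17) lay above CBA (-0.28 ± 0.26) and BL6 (-0.35 ± 0.18), with adjusted p = 0.28. Cacng4 lies next to Cacng1 in the gene table but had nearly the opposite order, with CBA at 0.40 ± 0.17 and BALB at -0.46 ± 0.11 (adjusted p = 0.252). Its ratios were 0.44 for DBA 2 over BALB 1, 0.33 for BL10 1 over BALB 2, -0.59 for BALB 2 over BL6 2, 0.17 for CBA 1 over BL10 1, 0.34 for CBA 2 over BL10 2, -0.21 for DBA 1 over BL6 1, -0.13 for BL6 1 over DBA 2 and -0.02 for BL10 2 over DBA 1. BALB was the lower animal on each of its 3 arrays.

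The remaining neuronal forms had an unadjusted p above 0.05. They were the sodium channels Scn1a, Scn2a, Scn3a, Scn10a and Scn11a (ranges of 0.25 to 0.48), the calcium channel pores Cacna1a, Cacna1b, Cacna1d, Cacna1e and Cacna1g (0.15 to 0.37), Cacng2 (0.47), the potassium channel genes Kcna4, Kcnc2, Kcnd2, Kcnh3, Kcnip4, Kcnq5 and Kcns1 (0.12 to 0.97), the calcium pump Atp2b2 (0.25) and the chloride transporter Clcn4 (0.26). Kcnq5 had the widest of these ranges, between -0.60 in CBA and 0.37 in BALB (adjusted p = 0.382).

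Among the forms in neither group, Kcna3, the Kv1.3 channel known from lymphocytes, had levels of 0.63 ± 0.20 in BALB, 0.44 ± 0.17 in BL10, 0.00 ± 0.17 in DBA, -0.51 ± 0.30 in CBA and -0.56 ± 0.21 in BL6 (adjusted p = 0.154). Its ratios were 1.51 for BALB 2 over BL6 2, the highest of all 112 features on any array, 1.06 for DBA 1 over BL6 1, 0.04 for BL6 1 over DBA 2, -0.73 for DBA 2 over BALB 1, 0.60 for BL10 1 over BALB 2, 0.28 for BL10 2 over DBA 1, -0.68 for CBA 1 over BL10 1 and -0.56 for CBA 2 over BL10 2. BL6 lay below both of the animals set against it in Cy5 and was close to DBA 2 when labelled in Cy5 itself.

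Kcnab1, a beta subunit of Kv1 channels, had the widest range of all 112 features. Its ratios were -1.14 for BL6 1 over DBA 2, -0.79 for BALB 2 over BL6 2, -0.35 for DBA 1 over BL6 1, -0.22 for DBA 2 over BALB 1, -0.17 for BL10 2 over DBA 1, -0.14 for BL10 1 over BALB 2, -0.12 for CBA 2 over BL10 2 and 0.05 for CBA 1 over BL10 1. The CBA arrays were those nearest to 0, yet the fitted CBA level was 0.90 ± 0.18, since the dye term was -0.71. Without a dye term CBA lay at -0.16 against the other 4 strains instead of 1.12. BALB and BL6 were at -0.51 ± 0.12 and -0.48 ± 0.13 (adjusted p = 0.211), and 1 of the 2 spots had p below 0.05 on its own. With all 10 arrays under their labels the range of Kcnab1 fell from 1.41 to 0.26, with p above 0.05.

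The other potassium channel genes of this group with p below 0.05 were Kcnma1, the large-conductance calcium-activated channel, between -0.70 in CBA and 0.48 in BALB (adjusted p = 0.307), Kcnab3, from -0.52 in CBA to 0.50 in BL6 (adjusted p = 0.334), and Kcnd1, between 0.59 in CBA and -0.44 in BALB (adjusted p = 0.334). Those without were Kcna5, Kcnab2, Kcnd3, Kcne1, Kcne1l, Kcne4, Kcnh1, Kcnh2, Kcnh7, Kcnip2, Kcnip3, Kcnj1, Kcnj4, Kcnj5, Kcnj8, Kcnj15, Kcnj16, Kcnk1, Kcnk2, Kcnk3, Kcnk4, Kcnk5, Kcnk7, Kcnmb1, Kcnmb4, Kcnn4, Kcnq1 and Kcnu1, with ranges of 0.08 (a feature of Kcnq1) to 0.92 (Kcnh1). The same held for the calcium channel subunits Cacna1c, Cacna1f, Cacna2d2, Cacna2d3 and Cacnb2 (0.14 to 0.86), the chloride channels and transporters Clcn2, Clcn3, Clcn5, Clcn6 and Clcn7 (0.16 to 0.66), Scn7a (0.22), Itpr3 (0.41), Atp2a3 (0.25), the sodium pump subunits Atp1b2 (0.57) and Atp1b3 (0.46), and Atp10a (0.69), Atp11a (0.24) and Atp12a (0.75).

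**Figure D3:**
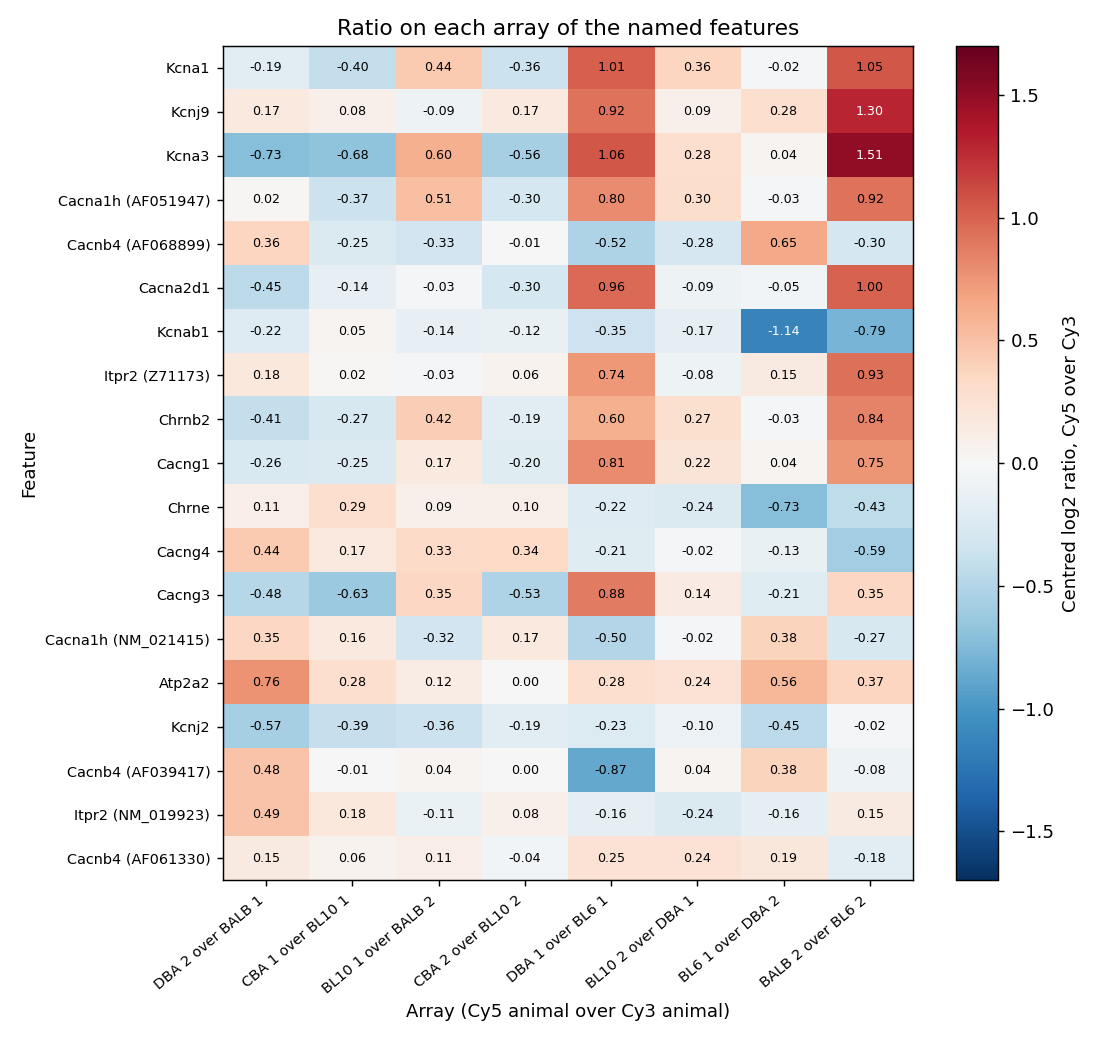
Centred log2 ratio of Cy5 over Cy3 (colour and number) on each of the 8 arrays (x axis) for the 19 named features (y axis, ordered by p). The columns of BALB 2 over BL6 2 and DBA 1 over BL6 1 hold most of the ratios near 1, whereas the columns of both CBA arrays stay between -0.68 and 0.34. Ratios of all features also spread more on the first 2 arrays (SD 0.545 and 0.559) than on CBA 1 over BL10 1 (0.383) and CBA 2 over BL10 2 (0.347).

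For 6 genes the array held more than 1 feature, each made to another accession, and 3 of these genes gave features that differed. Cacna1h, the T-type channel Cav3.2, had 1 feature (AF051947, adjusted p = 0.155) with BL10 at 0.29 ± 0.11, BALB at 0.27 ± 0.12, BL6 at -0.32 ± 0.13 and CBA at -0.36 ± 0.18. The other (NM_021415, adjusted p = 0.358) had BL6 highest, at 0.43 ± 0.14, and BL10 lowest, at -0.26 ± 0.11. On the array of BALB 2 over BL6 2 the first stood at 0.92 and the other at -0.27, on DBA 1 over BL6 1 at 0.80 and -0.50, and on BL10 1 over BALB 2 at 0.51 and -0.32. On BL6 1 over DBA 2 they stood at -0.03 and 0.38, on CBA 1 over BL10 1 at -0.37 and 0.16, on CBA 2 over BL10 2 at -0.30 and 0.17, on BL10 2 over DBA 1 at 0.30 and -0.02, and on DBA 2 over BALB 1 at 0.02 and 0.35. The signs were opposite on 7 of the 8 arrays, so that no single strain order can be given for Cacna1h.

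The 3 features of Cacnb4 all had BL6 highest, at 0.70 ± 0.13 (AF068899), 0.39 ± 0.19 (AF039417) and 0.10 ± 0.13 (AF061330), with adjusted p = 0.197, 0.547 and 0.893. AF039417 had ratios of -0.87 for DBA 1 over BL6 1, 0.38 for BL6 1 over DBA 2 and -0.08 for BALB 2 over BL6 2, again with BL6 the higher animal, then 0.48 for DBA 2 over BALB 1 and between -0.01 and 0.04 on the 4 other arrays. The ratios of AF061330 lay between -0.18 and 0.25 on all 8. The endoplasmic calcium release channel Itpr2 had 1 feature (Z71173) with levels between -0.50 ± 0.17 in CBA and 0.42 ± 0.11 in BALB (adjusted p = 0.215) and another (NM_019923) with levels between -0.15 and 0.18 (adjusted p = 0.699).

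The ratios of Itpr2 at Z71173 were 0.93 for BALB 2 over BL6 2, 0.74 for DBA 1 over BL6 1, 0.18 for DBA 2 over BALB 1, 0.15 for BL6 1 over DBA 2, 0.06 for CBA 2 over BL10 2, 0.02 for CBA 1 over BL10 1, -0.03 for BL10 1 over BALB 2 and -0.08 for BL10 2 over DBA 1. At NM_019923 they were 0.15, -0.16, 0.49, -0.16, 0.08, 0.18, -0.11 and -0.24 on the same arrays. The arrays on which Z71173 deviated most were thus not those on which the other feature did. The features of Clcn1, Kcnj6 and Kcnq1 all had p above 0.05.

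**Figure D4:**
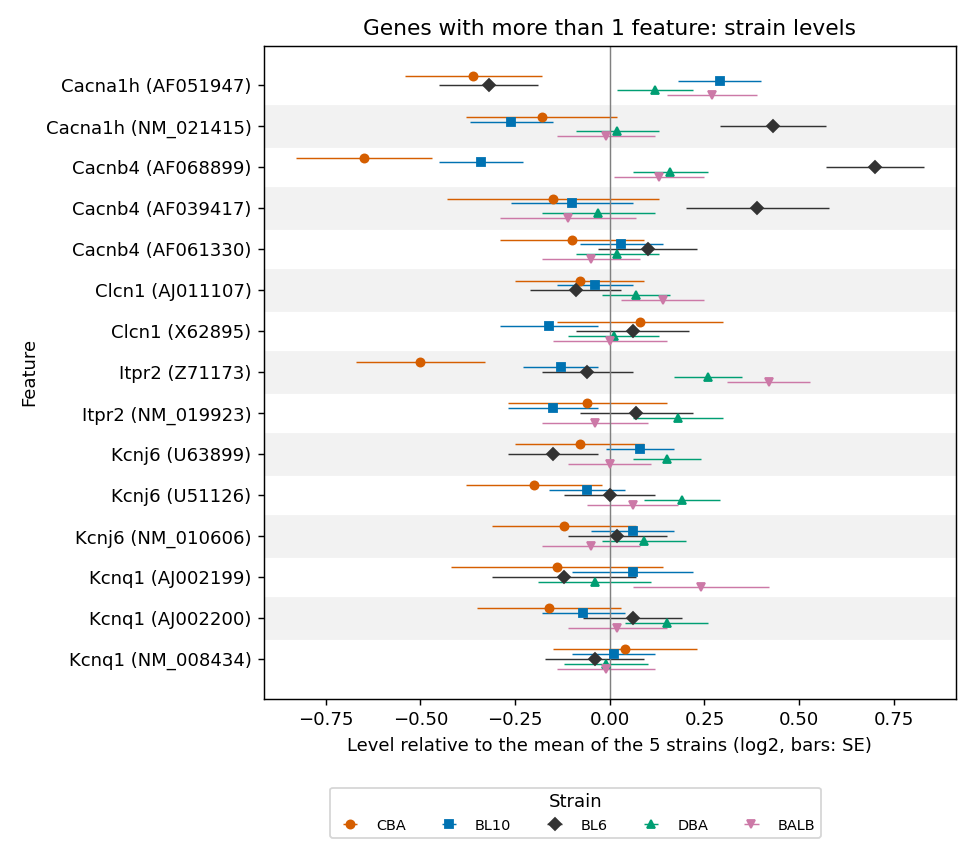
Level of each strain relative to the mean of the 5 strains (x axis, log2, bars are SE) for the features of the 6 genes with more than 1 feature (y axis, with the accession each was made to). BL6 lies at -0.32 for 1 feature of Cacna1h and at 0.43 for the other, whereas it is the highest strain for all 3 features of Cacnb4.

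With each strain set against the mean of the other 4, again no feature passed an FDR of 10%. The background was 0 for CBA, 0.0650% for BL10, 0.0650% for BL6, 0.0130% for DBA and 0 for BALB. The smallest adjusted p-values were 0.15 in BL6 (Cacnb4), 0.352 in CBA (Kcnab1), 0.354 in BALB (Kcnj9), 0.615 in BL10 (Cacnb4) and 0.833 in DBA (Itpr2). At an unadjusted p below 0.05, BALB had 19 features (10 higher and 9 lower, 17.0% against 11.3% of all features) and CBA had 16 (5 higher and 11 lower, 14.3% against 11.5%). BL6 had 16 (9 higher and 7 lower, 14.3% against 15.0%), BL10 had 11 (6 higher and 5 lower, 9.82% against 7.63%) and DBA had 7, all higher (6.25% against 5.64%). Higher and lower features were not counted over the whole array, so these directions have no background.

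Among the 16 features with p below 0.05 between strains, 7 had the same signs: CBA and BL6 below the mean, BL10 and BALB above it. These were Kcna1, Kcna3, Cacna1h (AF051947), Cacna2d1, Chrnb2, Cacng1 and Cacng3, of which Cacna2d1 and Cacng1 are muscle forms. This arrangement was noticed in the values and carries no test. It was found in 43.8% of these 16 features, in 29.5% of the 1080 features of the array with p below 0.05, and in 8.93% of the 112 features compared with 9.09% of all features. When all 10 arrays were entered under their labels, 11 of the 112 features had p below 0.05 (9.82%, against 9.81% of all features). The 7 shared with the 16 were the same genes. That fit holds every array in which the arrangement was noticed, so the match is no separate test of it. How many of all features with this arrangement kept p below 0.05 in that fit was not counted.

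CBA was the lowest strain in 9 of the 16 features and the highest in 4, whereas BALB was highest in 7 and lowest in 4, and DBA was never at either end. Over the 112 features, CBA was lowest in 50 (44.6%, against 37.7% of all features). The CBA level followed the dye term closely, with r = -0.791 across the 112 features, which share the 8 arrays and are not independent, compared with -0.583 across all features. The signs of the CBA level and the dye term were opposite in 92 features (82.1%, against 74.1% of all features). With all 10 arrays, the labels give each animal each dye once and the CBA and dye estimates are therefore separate by design. In that fit r was -0.0222 across the 112 features and -0.0341 across all features. The median range was 0.28 instead of 0.46, but this fit enters the same values under 2 labels. The part of the dye estimate in the CBA levels was not tested.

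**Figure D5:**
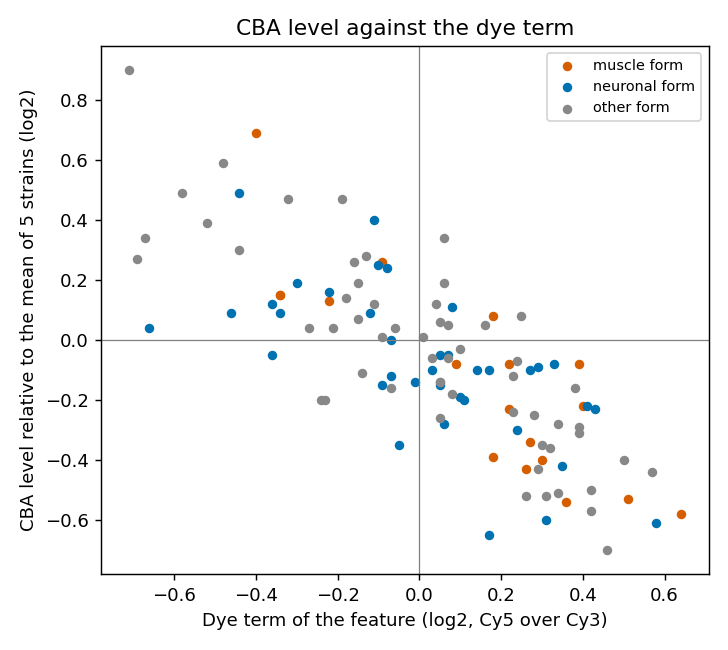
CBA level relative to the mean of the 5 strains (y axis, log2) against the dye term of the feature (x axis, log2, Cy5 over Cy3) for the 112 features, coloured by form. The points run from the upper left (Kcnab1, level 0.90 and dye term -0.71) to the lower right (Atp1b1, level -0.58 and dye term 0.64), with r = -0.791.

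Only DBA and BL6 were compared in both dye orientations, with BL6 1 set against DBA 1 and DBA 2, so that the difference of these ratios divided by 2 is free of the dye effect. This DBA over BL6 value had a median of -0.03 over the 112 features (quartiles -0.15 and 0.15) and of -0.01 over all features (-0.16 and 0.15). It exceeded 0.5 in size in 7 features (6.25%, against 4.30% of all features). The highest were 0.79 for Atp1b2, a beta subunit of the sodium pump, 0.54 for Cacng3, 0.52 for Kcna1, 0.51 for Kcna3 and 0.51 for Cacna2d1, and the lowest were -0.62 and -0.58 for 2 features of Cacnb4. Muscle forms ran from -0.23 (Kcne3) to 0.51 (Cacna2d1) with a median of 0.10, and include Atp2a1 (0.43), Cacng1 (0.38) and Chrne (0.26). With 1 BL6 animal these values have no test.

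Duplicate spots gave a measure of technical error. Within the 8 arrays their ratios correlated at r = 0.606 to 0.716 across the 112 features (0.645 to 0.857 over all features), and the SD of their difference was 0.218 to 0.483 on the log2 scale. This SD was largest on BALB 2 over BL6 2 (0.483) and DBA 1 over BL6 1 (0.412). Of the 16 features, 6 had p below 0.05 at both spots taken separately (Kcna1, Kcna3, Cacna1h, Cacna2d1, Chrnb2 and Cacng1), 9 at 1 spot and 1 at neither. The 16 had been chosen on the mean of these spots, and both spots passed in 37.5% of them, against 33.3% of the 1080 features of the array with p below 0.05.

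Genes that work with these channels but are not among them were counted with the same test. Of a list of 33 genes of the endplate, the triad and calcium handling, 22 were on the array with 28 features. An unadjusted p below 0.05 was found for 12 (42.9%, against 14.0% of all features), and 1 passed the FDR of 10%. This list was chosen with earlier results of these data known, and 4 of the 12 features belong to Ryr1 and Ryr3, so the share is a description only. The feature that passed was Pvalb, parvalbumin, the calcium buffer of fast fibres, at 0.83 in DBA, 0.48 in BALB, 0.11 in BL6, -0.36 in BL10 and -1.07 in CBA (adjusted p = 0.0624). Ryr1, the ryanodine receptor opened by the voltage sensor, had BL6 at -0.83, -0.49 and -0.13 at its 3 features (adjusted p = 0.191, 0.307 and 0.38) and BALB at 0.49, 0.28 and 0.13. Agrin (Agrn) had BL6 at -0.32 and BALB at 0.35 at 1 feature (AF294811, adjusted p = 0.211) but BL6 highest, at 0.33, at the other (U84407, adjusted p = 0.438). The 3 features of Ryr3 likewise had BL6 at 0.30, -0.24 and 0.28 (adjusted p = 0.326, 0.323 and 0.726), and the cardiac calsequestrin Casq2 had BL6 at -0.37 and BL10 at 0.29 (adjusted p = 0.197). The rest of the 12 had other orders or BALB highest. CBA was highest for Fkbp1a (0.71, adjusted p = 0.267) and 1 feature of Slc8a1 (0.65, adjusted p = 0.263), but at -0.09 for another of Slc8a1. DBA was highest for Casq1 (0.45, adjusted p = 0.353), and BALB for Jph1 (0.48, adjusted p = 0.342) and Jph2 (0.50, adjusted p = 0.267).

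Markers of the cells that a piece of muscle holds were also read. Of 8 features of nerve and Schwann cell markers, 0 had p below 0.05, and the CBA level ranged from -0.49 (Nefm) to 0.56 (Syt1). The same held for 5 endothelial and 2 blood features, with Hba-a1 between -0.82 in BL6 and 1.15 in BL10 (adjusted p = 0.404). Of 6 muscle fibre features, 2 had p below 0.05: Acta1 (-0.40 in CBA, 0.38 in BALB, adjusted p = 0.154) and Tnnt3, the troponin T of fast fibres (-0.60 in BL6, 0.54 in BALB, adjusted p = 0.154). In BL6 Acta1 was at -0.17, whereas the other 4 were above 0, with Ckm at 0.09, Tnnt1 at 0.13, Tnni2 at 0.16 and Mb at 0.20. In CBA the macrophage marker Cd68 stood at 1.05 (adjusted p = 0.158) and the adipocyte marker Cidec at 1.13 (adjusted p = 0.197), each 1 of 4 features of its list with p below 0.05. The other leukocyte features did not follow in CBA, with Adgre1 at -0.31, Itgam at -0.10 and Ptprc at 0.05, and nor did the adipocyte features Lep at -0.19, Adipoq at -0.04 and Fabp4 at 0.19. The part of these markers in the channel values was not tested.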

How the data were processed

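RNA of quadriceps muscle from 10 mice was hybridised in pairs to 10 arrays of 65-base oligonucleotides spotted in duplicate. Per the methods, the authors quantified the scans in GenePix Pro 3.0, took off the local background and normalized by variance stabilisation. Each array's deposited column holds 15552 natural log ratios (Cy5 over Cy3), a base and direction taken from that method and the dyes in the labels. They hold neither intensity nor background, so depth and detection limits are unknown.

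Ratios were converted to log2, centred on each array's median and averaged over duplicate spots, and 80 control features were averaged to 1, which left 7697 features. Gene names came from the platform annotation (6752 features with 1 symbol, 7 with several, 938 with none); all 112 features described were found in the gene table by gene ID. The 2 identical arrays were left out. Strain and a dye term per gene were fitted in limma 3.58.1 (R 4.3.3), with the animal as a random effect whose variance ratio of 0.446 was estimated over all features, 3 residual degrees of freedom and 6.13 prior ones. P-values were adjusted by Benjamini and Hochberg over 7697 features. The steps were tested on simulated data. Nothing states that the animals of a strain came from separate litters.

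The features described and the gene lists were chosen with earlier results of these data known. The genes named with every array ratio were the 5 muscle features and the 10 neuronal or other features of smallest p, with all features of the genes these belong to. Alternatives were no centring, equal spreads, quantile normalization, each spot by itself, both spots as separate measurements, a fit with no dye term, independent arrays, a test without shared spread, robust eBayes, the 10 arrays or the shared values under either label, and leaving out each animal. Figures were drawn with matplotlib 3.10.9.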

Additional observations from a re-analysis of the deposited data

How the results depend on the processing

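For each of the 19 named features, the strain farthest from the mean was set against the other 4 under 22 alternatives. Over all of them, 358 of 418 values kept their direction and their side of the threshold. Another 40 passed the threshold only under the alternative and 20 changed sign. As none had passed in the main fit, keeping its side means that a value again did not pass, whatever its size. Chrne in CBA, for example, was counted as kept although it went from 0.86 to 0.07 with all 10 arrays. The count of features at an FDR of 10% between strains was 0. It rose to 4 with equal array spreads, 3 with quantile normalization and 9 with duplicate spots as separate measurements. Of all features, 2.55%, 1.73% and 6.30% then passed, against 0.130%. For BL6 the count went from 0 to 1, 1 and 6 with quantile normalization, the second spot alone and duplicate spots as separate measurements. The share of all features was not counted for BL6 under these alternatives. The count at an unadjusted p below 0.05 went from 16 to 2 without a dye term, 8 without shared spread and 10 with the identical values entered only as BALB 1 over CBA 2, against 2.96%, 9.51% and 8.35% of all features. Leaving out animals gave 0 to 61 features at the FDR between strains, 0 to 39 for CBA, 0 to 18 for BL10, 0 to 31 for BL6, 0 to 25 for DBA and 0 to 48 for BALB, and 8 (without BL10 1) to 60 (without BALB 2) at the unadjusted p. Of all features, 40.4% had p below 0.05 without BL6 1, 46.8% without DBA 1, 52.7% without BALB 2 and 30.9% without BALB 1, but 5.09% and 6.04% without BL10 1 and BL10 2, although residual degrees of freedom were 1 in all of these except BALB 1, with 2. Leaving out DBA 2 could not be fitted, since the dye and the strains could then not be separated.

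Signs turned as follows, with CBA against the other 4 strains unless said. Without a dye term, Atp2a2 was at 0.28, Kcna1 at 0.10, Kcnj9 at 0.30, Cacna1h (AF051947) at 0.12, Kcnab1 at -0.16, Itpr2 (Z71173) at 0.13, Cacnb4 (AF061330) at 0.13 and Kcnj2, in BL6, at 0.08. With all 10 arrays, Atp2a2 was at 0.02, Kcnj9 at 0.04 and Cacnb4 (AF061330) at 0.05. With the identical values entered only as BALB 1 over CBA 2, Kcna1 was at 0.01, Kcnj9 at 0.11 and Itpr2 (Z71173) at 0.03. Cacnb4 (AF061330) was at 0.07 with them as BL6 2 against CBA 1 and at 0.16 with the second spot alone. Leaving out animals moved Kcna1 from -1.01 to 0.73, Cacna1h (AF051947) from -0.76 to 0.63, Kcna3 in BALB from -0.37 to 1.82 and Itpr2 (NM_019923) in DBA from -0.05 to 0.47; the sign turned without BL6 1 for the first 3 and without BALB 1 for Itpr2. A fit without a dye term removes a term and a fit without an animal removes arrays, and the cause of the turned signs was not tested. No paired analysis was possible because animal numbers mark no shared litter or batch and each array already sets 2 animals side by side.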
